A study of Mus musculus with 6 samples.

Results

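Pomc and Oacyl are 2 of the 32298 genes counted in single nuclei of mouse brain lesions made with Foxr2. They were chosen from earlier results of the same data, in which both were higher in nuclei with Foxr2 UMIs (unique molecular identifiers, each of which marks 1 captured RNA molecule) of the tumor that also lacked p53. The values were followed in each nucleus, in each class of nuclei named by marker genes, beside Foxr2, GFP and Hmga2, and in the open chromatin within 10 kb of both start sites. In the nuclei that carry most of the Pomc and Oacyl UMIs, Foxr2 per total UMIs was not above the other barcodes beyond counting error. Pomc itself takes up part of that total, which lowers the Foxr2 ratio, and the interval held 1 only narrowly. These nuclei are called Pomc-rich here, after the counts that defined them.

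The study delivered plasmids into the embryonic brain by in utero electroporation, aimed at the ganglionic eminences, and profiled the later lesions by 10x Multiome, in which RNA and chromatin open to a transposase (ATAC) are both read from each nucleus. In all groups, C57BL/6J mice received Foxr2-V5 linked to GFP and Akaluc (a luciferase) linked to GFP, both driven by the CAG promoter and inserted by the piggyBac transposase. The Foxr2 p53LOF library also received Cas9 with a guide against p53, and the Foxr2 alone libraries did not. The paper reports high-grade tumors with p53LOF and nonproliferative lesions with Foxr2 alone. The vectors enter cells that line the ventricle at the time of electroporation, so each library mixes cells with the vectors and host brain cells without them. The age of the mice at collection was not given in the labels. Foxr2 p53LOF replicate 1 and Foxr2 alone replicate 1 are the libraries whose counts were analysed here, so genotype and library cannot be told apart and no test was possible. Counts of Foxr2 alone replicate 2 were not analysed here, and only its peak list was used.

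Pomc encodes pro-opiomelanocortin, a precursor that is cut into ACTH, alpha-MSH and beta-endorphin. It is made in corticotrophs and melanotrophs of the pituitary and in neurons of the arcuate nucleus of the hypothalamus. The prohormone convertases encoded by Pcsk1 and Pcsk2 make the cuts, and the T-box factor Tbx19 activates Pomc in the pituitary. Oacyl is annotated as an O-acyltransferase-like gene and its function is little known. Foxr2 is a forkhead factor active in several brain tumors, and Hmga2 is a chromatin protein of embryonic tissue.

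Foxr2 p53LOF held 10379 called barcodes and 96929539 UMIs, and Foxr2 alone held 10096 barcodes and 59719847 UMIs. After filters and removal of called doublets, 8359 and 8316 nuclei were kept, with a median of 5527 and 3637 UMIs per nucleus. The 2 libraries shared 140 barcodes, and they shared 34 and 19, respectively, with Foxr2 alone replicate 2. Intervals in parentheses are exact 95% intervals, Poisson for counts and Clopper-Pearson for shares, and cover counting error only. Nuclei of 1 library are not replicates, so no p-value is given.

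Pomc (ENSMUSG00000020660) lies on the plus strand at chr12:3954951-3960642 in mm10. In Foxr2 p53LOF, no called peak covered its start site, and 2 peaks lay within 10 kb. The first ran from -7685 to -6858 bases relative to the start site, at chr12:3947266-3948093, where no gene is annotated. The second was 4694 to 5580 bases downstream, at chr12:3959645-3960531, over a coding exon and untranslated part of Pomc. The sequence before the Pomc start site as RefSeq places it, from chr12:3954695-3954944, and the central 300 bases of the upstream peak, from chr12:3947529-3947828, are shown. The first is the promoter of the gene that dominates the Pomc-rich nuclei. The second has the largest accessibility ratio of these nuclei over the other barcodes among the peaks near Pomc and Oacyl, from 9 counts. Both sequences were read 5′ to 3′ on the plus strand from RefSeq GRCm38.p6, and the capitals mark the T-box letters described below.
Pomc promoter: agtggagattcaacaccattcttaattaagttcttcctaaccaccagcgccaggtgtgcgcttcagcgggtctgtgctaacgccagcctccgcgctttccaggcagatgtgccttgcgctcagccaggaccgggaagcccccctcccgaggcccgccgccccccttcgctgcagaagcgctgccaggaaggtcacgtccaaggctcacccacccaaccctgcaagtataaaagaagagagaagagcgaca
Upstream peak centre: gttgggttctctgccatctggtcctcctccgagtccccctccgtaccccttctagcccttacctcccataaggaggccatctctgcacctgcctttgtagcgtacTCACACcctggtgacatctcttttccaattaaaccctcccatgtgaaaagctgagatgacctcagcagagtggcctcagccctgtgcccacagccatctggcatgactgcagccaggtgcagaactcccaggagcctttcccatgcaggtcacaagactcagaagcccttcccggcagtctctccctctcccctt

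Both windows were searched on both strands for forkhead TAAACA, ETS CCGGAAG, E-box CAGCTG, SOX ACAATG and heat shock GAANNTTC, and these letters were in neither window. Among all 32851 promoter windows, the forkhead letters were in 13.4%, the ETS letters in 8.86%, the E-box letters in 16.3%, the SOX letters in 12.6% and the heat shock letters in 7.86%. After the data were seen, PITX TAATCC and T-box TCACAC were added, since Pitx1 and Tbx19 had UMIs in the Pomc-rich nuclei. The PITX letters were in neither window. The T-box letters were found once, at positions 106 to 111 of the upstream peak centre counted from its first base, and were also in 18.5% of all 112883 peak centres of that length. A match is a description of letters and not a bound site.

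In Foxr2 p53LOF, Pomc had 45111 UMIs and Oacyl had 1207 over all called barcodes. A set of 16 barcodes held 36284 of the Pomc UMIs (80.4%) and 938 of the Oacyl UMIs (77.7%). These Pomc-rich nuclei were defined, after the data were seen, by at least 200 Pomc UMIs that made up at least 1% of the UMIs of the nucleus. Their values are therefore a description. They held a lowest of 365, a median of 1415 and a highest of 9733 Pomc UMIs each, which was 2.18% to 25.8% of the UMIs of a nucleus. Just inside the limits was the nucleus with 365 Pomc UMIs (5.50% of its UMIs). Just outside were barcodes with 495 (0.669%), 262 (0.0515%) and 126 (2.35%) Pomc UMIs, which held 3, 1 and 1 Oacyl UMIs.

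Oacyl counts did not define the Pomc-rich nuclei, but Oacyl was chosen for a Foxr2 ratio that rested on the 4 of them that passed the filters. Its log2 ratio of CPM plus 1 was 1.06 with those nuclei and -0.38 without. Its level in the Pomc-rich nuclei is thus in part that choice seen again. All 16 had Oacyl UMIs, with a lowest of 13, a median of 62 and a highest of 109. Of the other 10363 barcodes, 204 (1.97%, 1.71 to 2.25) had an Oacyl UMI. One of these had 30 Oacyl UMIs, with 39 Pomc and 51 Pcsk2 UMIs, and the rest had at most 5. Within the Pomc-rich nuclei the order of the 2 genes differed. The nucleus with the fewest Pomc UMIs (365) had 91 Oacyl UMIs, as many as the nucleus with the most (9733), while nuclei with 1547 and 1520 Pomc UMIs had 14 and 15.

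**Figure D1:**
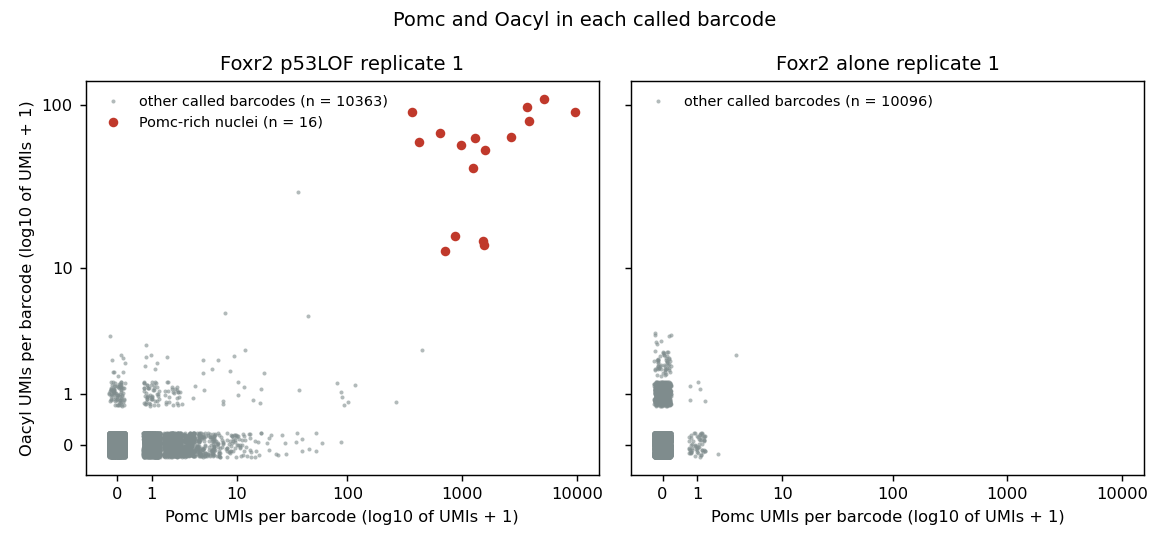
Pomc UMIs (x axis) against Oacyl UMIs (y axis) in each called barcode, both on a log10 scale of UMIs plus 1 with small random offsets for the grey points, for Foxr2 p53LOF replicate 1 (left) and Foxr2 alone replicate 1 (right). The 16 Pomc-rich nuclei (red) hold 13 to 109 Oacyl UMIs each, and Foxr2 alone has none of them.

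Most Pomc-rich nuclei did not pass the usual filters. Of the 16, 4 were kept, 6 were called doublets and 6 lay outside the filter limits, 5 of these with more genes than the upper limit. Too few ATAC counts were found in 2 of the 6, the nuclei with 5164 and 424 Pomc UMIs, the first of which also exceeded the gene limit. The 4 kept nuclei held 3821, 2659, 1242 and 718 Pomc UMIs and 81, 65, 42 and 13 Oacyl UMIs. All 4 fell into cluster 2, a neuron-like cluster. The filters kept 31.1% of all Pomc UMIs, while 54.5% were in barcodes outside the limits and 14.4% in called doublets. The Pomc-rich nuclei had 5107 to 95080 UMIs each (median 13415.5, against 5905 in the other barcodes). Whether they are single nuclei was not tested.

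Summed over the 16 Pomc-rich nuclei and scaled to all UMIs, Foxr2 and GFP did not differ from all other barcodes beyond counting error. Both were above their levels in neuron-like nuclei, which had the lowest levels of the named classes. For GFP the lack of a difference from all other barcodes rested on 2 nuclei, which held 78 of the 132 GFP UMIs. Foxr2 was counted in 11 of 16, with 0 to 7 UMIs each and a median of 1. Summed, Foxr2 was at 71.3 CPM (UMIs per 1000000 UMIs), against 47.8 in all other barcodes, a ratio of 1.49 (0.973 to 2.19). GFP was at 362 CPM against 400, a ratio of 0.907 (0.758 to 1.08). Hmga2 was at 211 CPM against 493, a ratio of 0.429 (0.338 to 0.536), and 12 of 16 nuclei had none of it. The Foxr2 and GFP intervals hold 1 on this scale, that of Foxr2 narrowly. Pomc was at 99550 CPM in the Pomc-rich sum, which lowers the CPM of every other gene there. Ratios on the UMIs of the other genes were not computed. That of Foxr2 would be larger than 1.49, with a lower limit above 0.973. That the Foxr2 interval holds 1 is therefore read for this scale only, and does not show that Foxr2 is level with the other barcodes. In the kept neuron-like nuclei without the Pomc-rich ones, Foxr2 was at 11.9 CPM (10.6 to 13.3) and GFP at 76.2 CPM (72.9 to 79.7). GFP was at 189 CPM in oligodendrocyte-like, 192 in OPC-like, 215 in immune-like, 259 in endothelial-like, 565 in astrocyte-like and 708 in COP-like nuclei. Foxr2 ran from 27.9 CPM (immune-like) to 88.3 CPM (COP-like) in these classes. The share of nuclei with a Foxr2 UMI was 68.8% in the Pomc-rich nuclei, 22% in the other barcodes and 12% in neuron-like nuclei, at median depths of 13415.5, 5905 and 9929 UMIs.

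ATAC counts on the vector sequences were found in 2 of the 16 Pomc-rich nuclei (12.5%), against 10.3% of the other barcodes. Median ATAC counts were 9976.5 and 6506, so these shares are not at equal depth. The 2 nuclei, with 9733 and 988 Pomc UMIs, had 4 and 13 vector counts. They also had the most ATAC counts of the 16, 142161 and 91380. These were also the nuclei with the most Foxr2 (7 and 6), GFP (31 and 47) and Hmga2 (46 and 26) UMIs, and both had more genes than the upper limit. In the other 14, Foxr2 was at 58.0 CPM (30.9 to 99.2), GFP at 241 CPM (181 to 314), below the 400 CPM of the other barcodes, and Hmga2 at 22.3 CPM (7.25 to 52.1). This GFP interval holds the 215 CPM of immune-like nuclei. Oacyl was at 3521 CPM (3280 to 3776) in these 14. In the 4 kept nuclei alone, the UMI sums were 3 for Foxr2, 6 for GFP and 0 for Hmga2.

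Genes for processing and secretion of the Pomc precursor were mostly higher in the Pomc-rich nuclei. The list of factors held more genes higher than lower, and few receptor genes and arcuate neuron markers could be called. The comparison set the summed UMIs of the 16 nuclei against all other barcodes of the library, and called a gene higher or lower when it had at least 10 CPM in 1 of the sums and its log2 ratio of CPM plus 1 was at least 1 in size. Of 11271 genes that could be called, 7.51% were higher and 16.3% were lower. With 16 nuclei, genes near the minimum rest on few UMIs, so their intervals are given. A gene under 10 CPM in the other barcodes, such as Oacyl, could enter only through the Pomc-rich sum and could not be called lower. Pomc is not among the genes that could be called, since its counts defined the nuclei. Of the genes that could be called, Oacyl had the largest ratio, 2574 against 2.79 CPM, a log2 ratio of 9.41, a rank that the choice of Oacyl favors.

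Of the 11 genes for processing and secretion of the precursor, 8 were higher and 0 lower, with a median log2 ratio of 1.37 against -0.17 for all genes. Pcsk2 had 31 to 478 UMIs in each of the 16 nuclei (median 87.5) and was at 5155 CPM against 119, a log2 ratio of 5.43. Chga, which encodes the granule protein chromogranin A, had 6 to 130 UMIs in each nucleus (median 16.5) and a log2 ratio of 5.80. Scg2 (2.52), Chgb (2.29), Pam (1.49), Scg5 (1.37), Pcsk1 (1.19) and Cpe (1.17) were the others that were higher. Pam encodes the enzyme that amidates peptides, Cpe a carboxypeptidase that trims them, and Scg5 a partner of the Pcsk2 convertase. Pcsk1 UMIs were in 8 of 16 nuclei. Pcsk1n, Ctsl and Scg3 had log2 ratios of -0.19, 0.65 and 0.22.

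Of the 21 transcription factors and signal receptors of Pomc cells, 12 could be called, of which 6 were higher and 3 lower, with a median log2 ratio of 0.90. Tbx19, Pitx1 and Lhx3 passed the minimum only through the Pomc-rich sum, so the count of higher genes and the median depend in part on the minimum. Tbx19 had 15 UMIs in 8 of the 16 nuclei and 12 UMIs in all 10363 other barcodes, a ratio of 331 (145 to 775). Pitx1, a homeodomain factor of the pituitary, had 14 UMIs in 7 nuclei against 86, a ratio of 43.1 (22.6 to 76.4). Lhx3, a LIM factor needed for the pituitary to form, had 9 UMIs against 3, a ratio of 795 (198 to 4564). Six3 (2.63, 1.77 to 3.76) and Nr4a2 (2.64, 1.65 to 4.01) were higher by smaller ratios. Nr3c1, the glucocorticoid receptor, and Lifr, the receptor of leukemia inhibitory factor, were lower, with log2 ratios of -1.38 and -1.69. Lepr, the leptin receptor, was also lower with a log2 ratio of -1.96, but it had 1 UMI and the interval of its ratio (0.00513 to 1.13) holds 1.

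Of the 12 receptor genes and genes of their accessory and opposing proteins, 3 could be called in the Pomc-rich nuclei, of which 0 were higher and 2 were lower. Those lower were the opioid receptor genes Oprm1 (1 UMI) and Oprk1 (0 UMIs), and the third, Atrn, which encodes the melanocortin co-receptor attractin, had 42 UMIs and a log2 ratio of -0.53. In all, 7 of the 12 had 0 UMIs, among them the melanocortin receptor genes Mc1r, Mc2r, Mc3r and Mc4r, which had 10 to 41 UMIs in all other barcodes, too few to show a difference. Of the other opioid and feeding peptides, Penk, the enkephalin precursor, was lower with 1 UMI, Npy had 0 UMIs and Pdyn, the dynorphin precursor, had 3 UMIs.

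Marker lists of the cell types that make Pomc rested on few counts, since 3 of 7 pituitary markers and 1 of 7 arcuate markers could be called. Of 7 pituitary markers, Tbx19 and Pitx1 were higher, Pcsk1n was not called, Prl had 1 UMI and Pou1f1, Gh and Cga had 0, and the list summed to 181 CPM against 117 in the other barcodes. Of 7 markers of arcuate Pomc neurons, 5 had 0 UMIs (Nkx2-1, Isl1, Prdm12, Tbx3 and Nr5a2), Cartpt and Lepr had 1 each, and the list summed to 5.49 against 26.0 CPM. Of 9 neuron markers, Syt1 (1.92), Snap25 (1.62) and Rbfox3 (1.5) were higher on the log2 scale, while Stmn2 (-1.78) and Grin2b (-1.15) were lower. Slc17a6, a vesicular glutamate transporter gene and a leading gene of cluster 2, was also lower, with 0 UMIs in the Pomc-rich nuclei and 8801 in the others. The summed neuron markers were at 4052 against 1551 CPM and those of committed oligodendrocyte precursors (COP) at 1229 against 1328. The summed markers of oligodendrocytes were at 1803 against 2649 CPM, those of astrocytes at 601 against 1160 and those of immune cells at 351 against 772. No cell type was assigned to the Pomc-rich nuclei. Whether they came from the lesion or from pituitary tissue collected with it was not tested, so their values are those of the library as collected.

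The following genes were chosen after their values were seen, by the ratio of CPM plus 10. After Oacyl, Chga and Pcsk2 came Pax7, a paired-box factor known for melanotroph identity, which had 63 UMIs in 12 of the 16 nuclei and 142 in all other barcodes. Trpm3, which encodes a cation channel, had 29 to 453 UMIs in each of the 16 nuclei. Drd2, the dopamine D2 receptor, had 88 UMIs in 13 nuclei and a log2 ratio of 4.12. Gnas, which encodes the stimulatory G protein subunit, had 20 to 387 UMIs in each nucleus. Esm1, Srrm4, Gli3, Esrp1, Cd24a and Epcam were also among the first 20. Of the 14 Pomc-rich nuclei with no vector ATAC count, 11 had Pax7 UMIs and 12 had Drd2 UMIs.

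**Figure D2:**
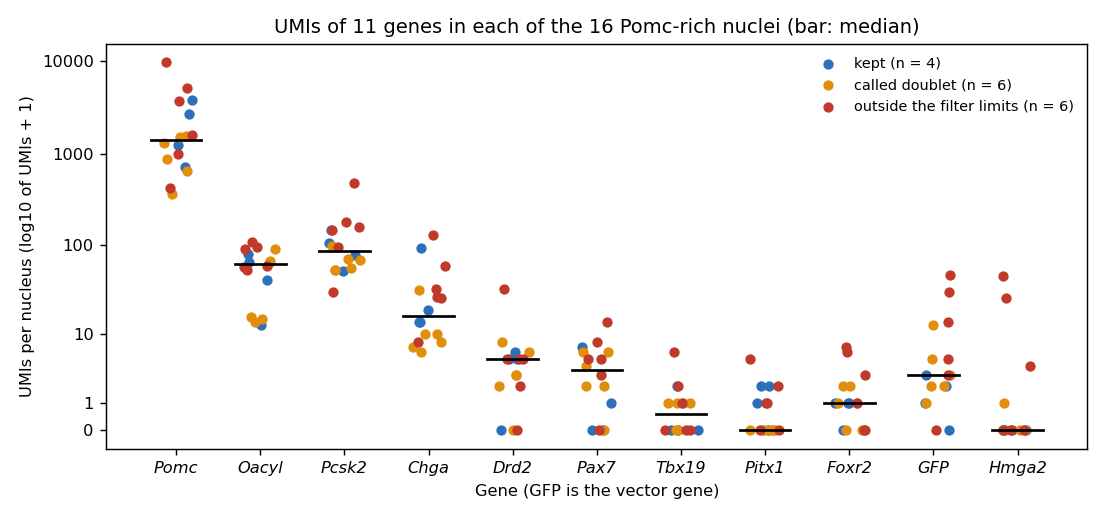
UMIs per nucleus (log10 scale of UMIs plus 1) of 11 genes in the 16 Pomc-rich nuclei of Foxr2 p53LOF replicate 1, with each point 1 nucleus, the color its filter status and the black bar the median. Pomc, Oacyl, Pcsk2 and Chga were counted in all 16 nuclei, while the medians of Foxr2, GFP and Hmga2 were 1, 3 and 0 UMIs.

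Of 17 annotated genes that start within 250 kb of either start site, 6 could be called in the Pomc-rich nuclei, of which 0 were higher and 1 was lower (Adcy3, an adenylyl cyclase, with 3 UMIs and a log2 ratio of -1.55). With 7.51% of all genes higher and 16.3% lower, these counts are near the shares of all genes. The median of the 6 was -0.39. AC124578.4 overlaps Oacyl, and reads from exons the genes share may have been counted to either or to neither.

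The accessibility of the 6 peaks near Pomc and Oacyl in the Pomc-rich nuclei was 1.03 to 9.72 times that in the other barcodes. Of the 378271 ATAC counts of the Pomc-rich nuclei, 142161 and 91380 came from the nuclei with 9733 and 988 Pomc UMIs. Both held vector ATAC counts and more genes than the upper limit, and they weigh most in these sums. Values are ATAC counts per 1000000 counts in peaks, and most fragments give a pair of counts, so the intervals are too narrow. Over all peaks with at least 5 counts on the compared scale, 30.5% of 27310 were at least 2-fold higher in the Pomc-rich nuclei. A peak could pass this minimum through its Pomc-rich counts, and then only with a high ratio, so the shares of peaks given here are shaped by it. The peak upstream of Pomc passed in this way, with 0.926 counts expected at the rate of the other barcodes. The peak upstream of Pomc was at 23.8 (10.9 to 45.2) against 2.45 in the other barcodes, a ratio of 9.72 (4.39 to 18.8), and 0.831% of the peaks compared had at least this ratio. These were 9 counts from 4 nuclei, which held 1, 2, 2 and 4, and 3 of the counts came from the nuclei with vector ATAC counts. In astrocyte-like nuclei this peak was at 5.11 and in neuron-like nuclei at 2.13. The peak over the end of Pomc was at 60.8 (38.5 to 91.2) against 23.9, a ratio of 2.55 that 22% of the peaks compared reached. Neuron-like nuclei without the Pomc-rich ones had the same accessibility within counting error (ratio 1.09, 0.690 to 1.65). Of the 23 counts of the Pomc-rich nuclei in this peak, 8 and 6 came from the nuclei with 9733 and 988 Pomc UMIs.

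Oacyl (ENSMUSG00000046610) lies on the plus strand of chromosome 18 from 65698268 to 65751601 in mm10, and 4 peaks lay within 10 kb of its start site in Foxr2 p53LOF. The peak from 630 bases before to 35 bases after the start site was at 37.0 (20.2 to 62.1) in the Pomc-rich nuclei against 11.5 in the others, a ratio of 3.21 (1.75 to 5.41). The peak in the intron 5443 bases downstream was at 39.7 (22.2 to 65.4) against 8.67, a ratio of 4.57 (2.55 to 7.58). At least these ratios were found in 15.2% and 7.87% of the peaks compared. Both peaks passed the minimum through their Pomc-rich counts, with 4.36 and 3.28 counts expected at the rate of the other barcodes. Of the 14 Pomc-rich counts at the start site, 6 came from the nucleus with 9733 Pomc UMIs. Of the 15 in the intron, 4 came from that nucleus and 4 from the nucleus with 988 Pomc UMIs. The upstream peaks that begin at -3299 and -5116 bases had ratios of 2.597 (0.949 to 5.68) and 1.03 (0.124 to 3.73). Between kept nuclei with and without a Foxr2 UMI, the peak at the Oacyl start site had a ratio of 1.25 (1.07 to 1.45) and the peak upstream of Pomc 1.16 (0.822 to 1.63). The peak over the end of Pomc (0.635, 0.566 to 0.712) and the Oacyl intron peak (0.645, 0.527 to 0.785) were lower per ATAC count with a Foxr2 UMI. Per nucleus the counts were close, with 368 counts in 1622 nuclei against 1587 in 6737 for the first and 126 against 535 for the second.

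**Figure D3:**
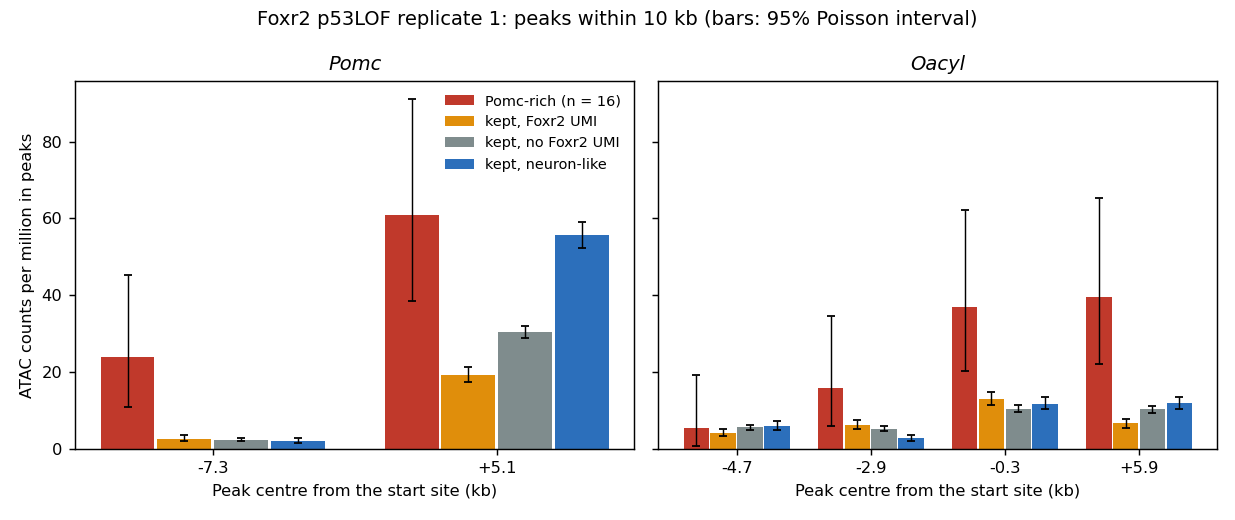
ATAC counts per 1000000 counts in peaks (y axis) for each called peak within 10 kb of the Pomc and Oacyl start sites of Foxr2 p53LOF replicate 1, placed by the distance of the peak centre in kb, in the Pomc-rich nuclei, kept nuclei with and without a Foxr2 UMI, and kept neuron-like nuclei, with 95% Poisson intervals. The peak upstream of Pomc is at 23.8 in the Pomc-rich nuclei and at 2.67 and 2.30 in kept nuclei with and without a Foxr2 UMI.

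Foxr2 alone replicate 1 had a peak 1183 bases and a peak 4698 bases downstream of the Pomc start site and none upstream within 10 kb. Its replicate 2 had 1 peak near Pomc, at 4699 bases downstream. Near Oacyl, Foxr2 alone replicate 1 had 4 peaks and replicate 2 had 6. Peaks were called in each library on its own, so a peak that is missing from a list is no measure of accessibility.

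The 2-fold ratios of Pomc and Oacyl between nuclei with and without Foxr2 UMIs rested on the kept Pomc-rich nuclei. Foxr2 UMIs were counted on the mouse gene, so vector and host transcripts cannot be told apart. Over all kept nuclei of Foxr2 p53LOF, Pomc was at 449 CPM in the 1622 nuclei with a Foxr2 UMI and at 154 CPM in the 6737 without, a log2 ratio of 1.55 (1.499 to 1.595). Oacyl was at 10.5 against 4.50 CPM, a log2 ratio of 1.22 (0.91 to 1.52). These are the values for which the genes were chosen, and 3.63% of 10924 genes were called higher and 6.14% lower. Without the 4 Pomc-rich nuclei, Pomc was at 93.5 against 92.9 CPM, a log2 ratio of 0.01 (-0.08 to 0.09). Oacyl was then at 2.10 against 3.02 CPM, a log2 ratio of -0.53 (-1.11 to 0.03). Pomc and Oacyl were no longer called, while 394 of the 396 genes called higher with all kept nuclei were still called higher.

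Over all genes, 3.63% were higher with a Foxr2 UMI and 6.14% were lower, and counts of a few list genes are read against these shares. Of the 11 genes for processing and secretion, 0 were higher with a Foxr2 UMI and 3 were lower (Pcsk1, Chgb and Scg2, with log2 ratios of -1.26, -1.17 and -1.03). The 0 higher is near the share of all genes, while 3 of 11 lower is above it. Of 8 transcription factors and signal receptors of Pomc cells that could be called, Six3, a homeobox factor of the forebrain, was higher (1.03) and Lepr lower (-1.26). Of 4 receptor genes that could be called, Mrap2, Oprm1 and Oprk1 were lower. The stress genes Hspa1a (1.99) and Hspa1b (1.82), which encode heat shock proteins, were higher among 6 that could be called. Of 5 oncofetal genes, Hmga2 (1.52), Hmga1 (1.08), Igf2bp2 (1.75) and Igf2bp3 (1.13) were higher and Lin28b (-1.18) was lower. Summed neuron markers were at 1051 CPM with a Foxr2 UMI and 2145 without, and summed astrocyte markers at 1548 and 746, so the makeup of classes moved with this comparison and its part was not tested.

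At equal depth, the ratios of Pomc moved with the Pomc-rich nuclei, and some of the others, but not all, rested on single nuclei. With each kept nucleus thinned to 1000 UMIs, the log2 ratio was 0.02 (-0.32 to 0.35) for Foxr2 and 0.05 (-0.10 to 0.20) for GFP. With the Pomc-rich nuclei left out as well, it was 0.76 (0.41 to 1.09) for Foxr2 and 1.06 (0.89 to 1.23) for GFP, against 0.01 and 0.10 before thinning. Thinning left out 134 nuclei and moved many others to the side without the second gene, since 1619 nuclei had a Foxr2 UMI and 4871 a GFP UMI before it, and 332 and 1906 after. Without the 1 nucleus with most Pomc UMIs among those with the second gene, the thinned values were 0.32 (-0.09 to 0.70) for Foxr2 and 0.87 (0.69 to 1.05) for GFP. Among nuclei of like total UMIs, the Foxr2 ratio of Pomc was 0.82 (0.49 to 1.13) under 2000 UMIs, but 0.08 (-0.34 to 0.47) without 1 nucleus with 40 Pomc UMIs. It was 0.18 (-0.05 to 0.41) from 2000, 0.26 (0.10 to 0.42) from 5000 and 0.50 (0.37 to 0.63) from 10000 UMIs. Without the nucleus with most Pomc UMIs among those with Foxr2, the values from 5000 and 10000 UMIs were 0.18 (0.01 to 0.34) and 0.44 (0.31 to 0.58). The GFP ratio was 1.44 under 2000, 0.54 from 2000, 0.22 from 5000 and 0.58 from 10000 UMIs. Without the nucleus with most Pomc UMIs among those with GFP, it was 0.99 (0.74 to 1.25), 0.38 (0.22 to 0.53), 0.05 (-0.11 to 0.21) and 0.50 (0.33 to 0.68).

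Within clusters, and without the Pomc-rich nuclei, the Foxr2 ratio of Pomc was above 0 beyond counting error in 1 and below 0 in 3 of 8 clusters. It was below 0 in clusters 2 (-0.47, -0.75 to -0.20) and 8 (-0.996, -1.98 to -0.16), also without the nucleus with most Pomc UMIs of either side. In cluster 4, which is astrocyte-like, it was 0.29 (0.08 to 0.49), but 0.21 with an interval that holds 0 without 1 nucleus. In cluster 16 it moved from -0.49 to 0.04 without 1 nucleus with 98 Pomc UMIs. The GFP ratio was above 0 in 2 of 11 clusters. In cluster 16 it was 1.23 (0.79 to 1.70), and 0.90 (0.46 to 1.38) without that nucleus. In cluster 3 it was 0.49 (0.27 to 0.71), but 0.02 (-0.22 to 0.26) without 1 nucleus with 90 Pomc UMIs.

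Kept nuclei with a GFP UMI had a Pomc log2 ratio of 0.80 (0.74 to 0.86) with the Pomc-rich nuclei and 0.10 (0.02 to 0.19) without them, against nuclei with no GFP UMI. The second value was 0.06 (-0.03 to 0.14) without 1 further nucleus, which held 126 Pomc UMIs. For Oacyl the values were 0.35 (0.01 to 0.70) and -0.10 (-0.58 to 0.40). For Hmga2 the Pomc ratio was -1.79 with the Pomc-rich nuclei and -0.10 without. The second value was -0.05 (-0.14 to 0.03) without also the nucleus with 126 Pomc UMIs. Without the Pomc-rich nuclei it was -0.48 (-0.77 to -0.19) at 1000 UMIs per nucleus, but 0.51 (0.38 to 0.64) among nuclei from 10000 UMIs. Its direction thus differed with the way depth was matched. The Oacyl ratio for Hmga2 was -2.25 (-2.80 to -1.75) with the Pomc-rich nuclei and -0.91 (-1.49 to -0.36) without. At 1000 UMIs per nucleus the Oacyl ratio for Hmga2 was 0.07 (-1.64 to 1.43) with them and 0.83 (-0.94 to 2.29) without, from 5 Oacyl UMIs in nuclei with Hmga2, so its direction did not hold at equal depth. Hmga2 was low in neuron-like nuclei (6.82 CPM) and high in astrocyte-like and COP-like nuclei (1084 and 1067 CPM), so class moved with this ratio. Its part in the result was not tested. Without the Pomc-rich nuclei, the Hmga2 ratio of Pomc was below 0 beyond counting error in cluster 6 (-0.49, -0.66 to -0.32). It was above 0 in clusters 2 and 3 and below 0 in cluster 5, but in each of these not without 1 nucleus.

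**Figure D4:**
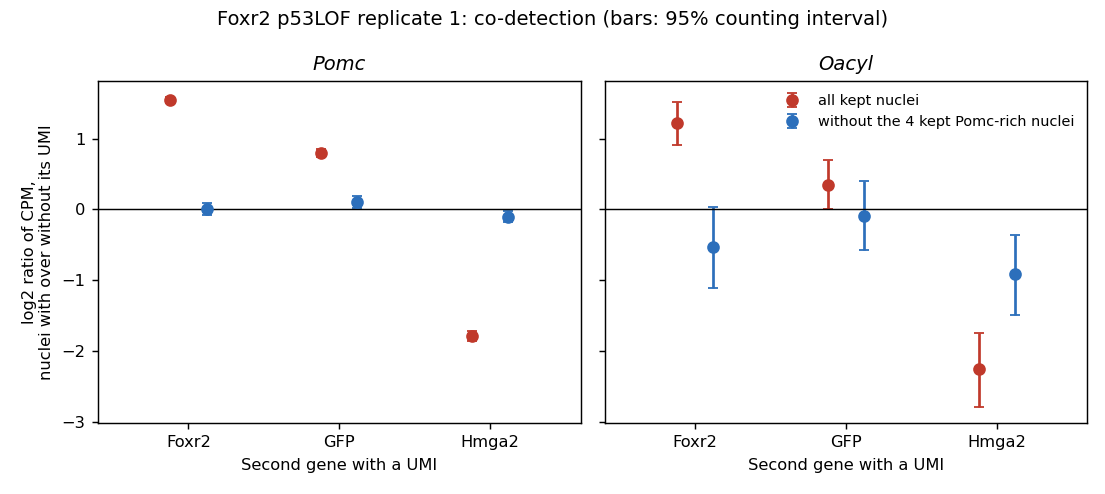
The log2 ratio of CPM (y axis) of Pomc (left) and Oacyl (right) between kept nuclei with and without a UMI of Foxr2, GFP or Hmga2 in Foxr2 p53LOF replicate 1, for all kept nuclei (red) and without the 4 kept Pomc-rich nuclei (blue), with 95% counting intervals. Without those 4 nuclei, the Foxr2 ratio moves from 1.55 to 0.01 for Pomc and from 1.22 to -0.53 for Oacyl.

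Among the kept nuclei that were not Pomc-rich, the Pomc level in CPM, with depth not matched, was similar up to 4 Foxr2 UMIs. Pomc UMIs per nucleus rose at each step. The level was 92.9, 91.1, 86.0 and 91.4 CPM at 0, 1, 2 and 3 to 4 Foxr2 UMIs, and 153 CPM (128 to 180) in the 54 nuclei with 5 or more, or 119 CPM (97.2 to 144) without the 1 of them with most Pomc UMIs. GFP, which is on the Foxr2 and the Akaluc plasmid, rose at each step, from 199.9 to 431, 760, 1107 and 1782 CPM. Oacyl was 3.02, 2.41, 1.79, 1.51 and 1.11 CPM over the same steps, with the last value from 1 UMI. Pomc UMIs per nucleus were 0.603, 0.804, 1.02, 1.19 and 2.56, and the share of nuclei with a Pomc UMI rose from 34.5% to 70.4%. Total UMIs rose along these steps too, from a median of 4650 to 17432 per nucleus. Pomc CPM fell with total UMIs, from 351 under 2000 to 58.9 over 10000, so similar CPM here is not a similar level at equal depth. Among nuclei of like total UMIs, the Foxr2 log2 ratio was 0.18 (-0.05 to 0.41) from 2000, 0.26 (0.10 to 0.42) from 5000 and 0.50 (0.37 to 0.63) from 10000. The steps themselves were not matched for depth.

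Low Pomc counts were spread over all classes of Foxr2 p53LOF. Without the Pomc-rich nuclei, 36.3% of kept nuclei had a Pomc UMI, at a mean of 0.668 UMIs per nucleus. The mean was 0.679 in neuron-like, 0.630 in astrocyte-like, 0.453 in oligodendrocyte-like, 0.459 in immune-like, 0.992 in COP-like, 0.368 in OPC-like (oligodendrocyte precursor) and 0.461 in endothelial-like nuclei. Of the immune-like nuclei, 31.8% had a Pomc UMI at a median depth of 2686 UMIs, and whether they make Pomc was not tested. At 1000 UMIs per nucleus, the share with a Pomc UMI was 12.98% (11.4 to 14.7) in immune-like nuclei. It was 5.40% (4.51 to 6.42) in neuron-like, 8.56% (7.06 to 10.3) in astrocyte-like, 10.7% in COP-like, 8.51% in OPC-like and 13.4% (11.7 to 15.2) in oligodendrocyte-like nuclei, at unthinned median depths of 9929, 8028, 7569, 3343 and 2447.5 UMIs. The neuron-like and astrocyte-like shares lay below the immune-like share and the intervals of the other 3 overlapped its interval. Without thinning the order was another, since the means per nucleus of COP-like (0.936 to 1.05), neuron-like (0.646 to 0.714) and astrocyte-like nuclei (0.586 to 0.675) lay above that of immune-like nuclei (0.428 to 0.493). These 3 classes are the deeper ones, and thinning lowers the share more in deeper nuclei where Pomc UMIs do not grow with depth. No order of the classes was read from these values, and whether the low counts are from free RNA was not tested. In endothelial-like nuclei the share was 20.3% (11.8 to 31.2), from 15 of 74 nuclei.

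The number of Pomc UMIs per nucleus rose far less than total UMIs, and the share of nuclei with a Pomc UMI rose from 28.3% under 2000 to 45.3% over 10000 UMIs. Nuclei with under 2000, 2000 to 5000, 5000 to 10000 and over 10000 UMIs had 0.530, 0.529, 0.684 and 0.910 Pomc UMIs on average, while median depth rose from 1577.5 to 13883. The Pomc level therefore fell from 351 to 169, 92.8 and 58.9 CPM. Oacyl was 0.00794, 0.00649, 0.0254 and 0.0379 UMIs per nucleus over the same groups.

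Cluster 16, which was left unnamed because astrocyte genes and T cell genes (Gzma, Gzmb, Il2ra and Themis) led it together, was above the other clusters. It held 2.11 Pomc UMIs per nucleus, 435 CPM (399 to 474), in 248 nuclei, and 26.4% (21.0 to 32.5) of them had a Pomc UMI at 1000 UMIs per nucleus. Its Foxr2 level (98.8 CPM, 81.8 to 118) was the highest of the 11 clusters, with an interval that overlapped that of the COP-like cluster (88.3 CPM, 82.9 to 94.0). Its GFP level (692 CPM) was next to that of the COP-like cluster (708 CPM). Cluster 2, with 472 CPM when the 4 Pomc-rich nuclei are included, was at 63.3 CPM (59.9 to 66.9) without them. Among the genes that set cluster 2 apart by fold in Foxr2 p53LOF were 6330411D24Rik, Htr2c, Htr4, Hs3st4, C130073E24Rik, Glra1, Nell1, Gm45323 and 9330158H04Rik.

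In Foxr2 alone, Pomc was close to absent, and no nucleus was Pomc-rich. It had 69 UMIs over all barcodes and 48 in kept nuclei, 1.21 CPM (0.894 to 1.61), and no barcode held more than 4. At 1000 UMIs per nucleus, 0.180% (0.0957 to 0.307) of nuclei had a Pomc UMI, against 10.4% in Foxr2 p53LOF. Without the Pomc-rich nuclei, Pomc in Foxr2 p53LOF still exceeded that in Foxr2 alone by a log2 ratio of 6.26 (5.85 to 6.70). Immune-like nuclei had 0 Pomc UMIs in Foxr2 alone and a mean of 0.459 in Foxr2 p53LOF, at median depths of 1132 and 2686 UMIs. The ratio compares low counts, found in all classes of Foxr2 p53LOF, between 2 single libraries. The part of free RNA in it was not tested.

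Oacyl, in contrast, was spread over neurons of Foxr2 alone. It had 401 UMIs in kept nuclei, of which 393 were in neuron-like nuclei, at 11.9 CPM (10.7 to 13.1) and in 8.26% of these nuclei. Oligodendrocyte-like nuclei had 2 UMIs (0.509 CPM), astrocyte-like nuclei 5 (3.28 CPM) and the 423 immune-like nuclei 0. At 1000 UMIs per nucleus the share with an Oacyl UMI was 1.23% (0.920 to 1.61) in neuron-like and 0.0950% (0.0115 to 0.343) in oligodendrocyte-like nuclei. Of the neuron-like clusters, the highest was cluster 1 (14.3 CPM, 12.4 to 16.4), with the striatal genes Penk and Ppp1r1b among its leading genes. It was followed by cluster 7 with Slc17a7 (12.2), cluster 9 (10.98), cluster 11 (7.77) and cluster 13 with Sst and Npy (2.66, 1.07 to 5.48). The intervals of clusters 1, 7 and 9 overlap, and that of cluster 13 lies below all 3.

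Neuron-like nuclei of Foxr2 p53LOF without the Pomc-rich ones had Oacyl at 3.85 CPM (3.12 to 4.70), from 97 UMIs. Different clusters hold the neuron-like class in the 2 libraries, mainly 2, 15 and 17 in Foxr2 p53LOF and 1, 7, 9, 11 and 13 in Foxr2 alone. In the other classes of Foxr2 p53LOF, Oacyl was at 0.641 (immune-like), 1.48 (oligodendrocyte-like), 2.09 (astrocyte-like) and 2.42 CPM (COP-like). Over all kept nuclei, Foxr2 p53LOF set against Foxr2 alone had a log2 ratio of -0.73 (-0.94 to -0.52), and -1.87 (-2.14 to -1.61) without the Pomc-rich nuclei. There were 38.7 Pomc UMIs per Oacyl UMI (36.3 to 41.3) in the Pomc-rich nuclei, 15.8 (12.9 to 19.6) in neuron-like nuclei without them and 196 (76.1 to 720) in immune-like nuclei, the last with 4 Oacyl UMIs. The values of astrocyte-like (32.5, 21.7 to 51.0) and COP-like nuclei (44.4, 30.4 to 67.7) overlapped that of the Pomc-rich nuclei.

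**Figure D5:**
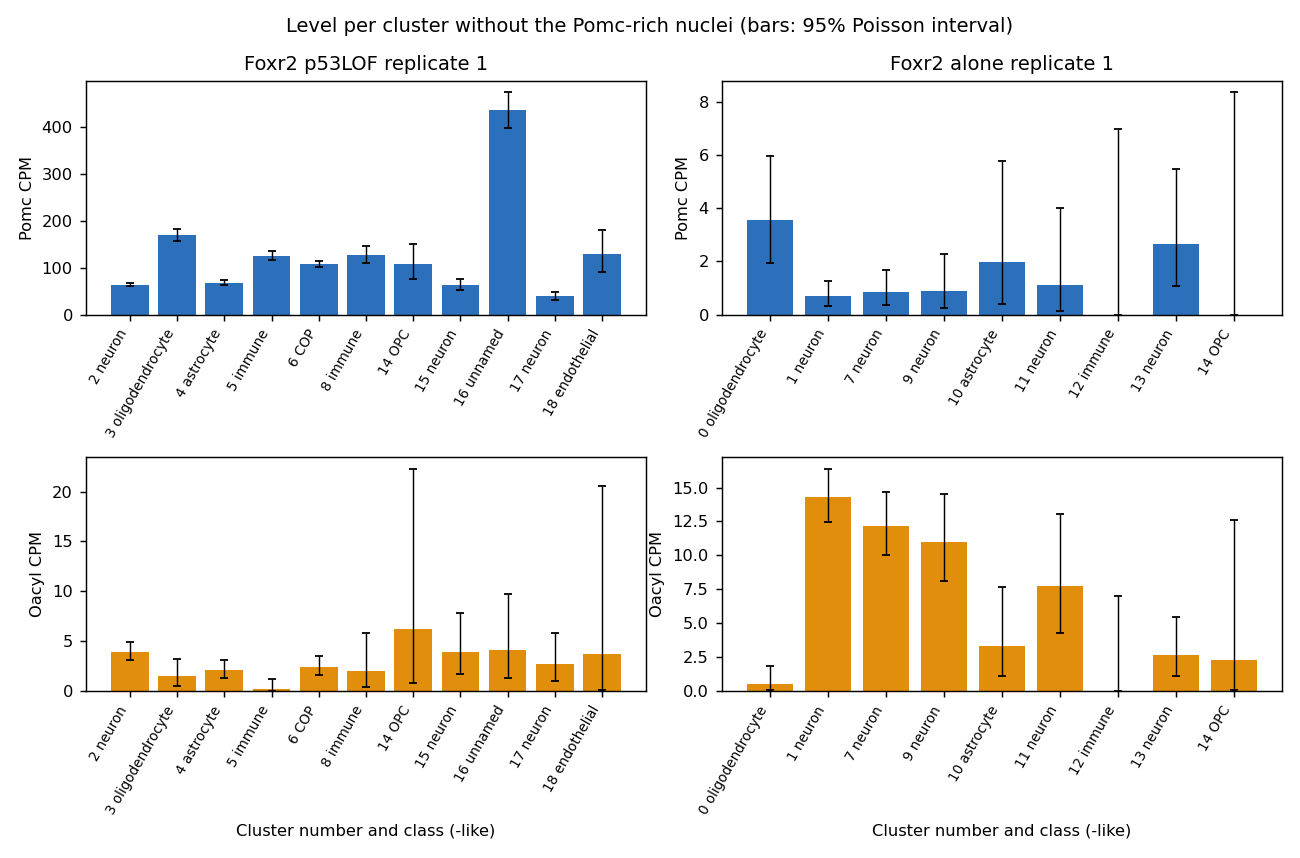
Pomc (top) and Oacyl (bottom) in CPM per cluster with at least 50 nuclei, without the Pomc-rich nuclei, in Foxr2 p53LOF replicate 1 (left) and Foxr2 alone replicate 1 (right), with 95% Poisson intervals and a separate y axis in each panel. Cluster 16 holds the highest Pomc level (435 CPM) and cluster 1 of Foxr2 alone the highest Oacyl level (14.3 CPM).

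The genes most like Pomc over the 11 clusters of Foxr2 p53LOF, by Pearson r of log2 CPM plus 1, were Gata3 (0.88), Fkbp2 (0.80), Zfp831, Pttg1, Ccdc60, Shox2, Dpy30 and Acvr1c (0.71), out of 13605 genes. Those most like Oacyl were Tmem8b (0.90), Zfp30 (0.88), Pnkd, Fxyd6, Ptdss2, Runx1t1, Ephb6 and Tspan7 (0.85). Pomc and Oacyl had an r of 0.41 with each other, and of -0.03 without the Pomc-rich nuclei. Without the Pomc-rich nuclei, the first genes for Pomc were Gstm1 (0.95), Smdt1 (0.93), Ubb, Dazap2, Gzma, Hspa8, Mt3 and Jund, and those for Oacyl were Dnaja4 (0.92), Zfp30 (0.92), Farp1, Plekhh3, Dchs1, Ryk, B930095G15Rik and Ebf4. These are descriptions over clusters of 1 library, whose median depths ran from 2412.5 to 16294 UMIs per nucleus. The part of depth in these r values was not tested.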

How the data were processed

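Nuclei of 3 libraries were profiled by 10x Multiome. The deposited matrices hold raw counts from Cell Ranger ARC 2.0.0, named in the submitters' processing notes and run by the authors at default parameters on mm10 with vector sequences added. Genes have UMI counts and peaks have counts of transposase cuts. Cells and peaks were called per library, and the deposited matrices are not normalized. Further columns hold start and end positions, and 0 columns were left unused. The members and all lists were chosen with earlier results of these data known.

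Nuclei were kept with at most 5% mitochondrial UMIs, at least 400 genes, at least 400 fragments in peaks (counts divided by 2) and below the upper limits of the study. Scrublet (scanpy 1.11.5, expected rate 8%) marked doublets, 353 in Foxr2 p53LOF and 540 in Foxr2 alone, which were removed. Kept nuclei were clustered jointly (2000 variable genes, 30 components, 20 neighbours, Leiden 0.10.2, resolution 0.5, seed 100) and named from fixed markers, with at least 3 markers required. Class names may differ from the study for this reason.

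UMIs were summed per class and given as CPM, with exact intervals from scipy 1.17.1. Shares were compared after each nucleus was thinned to 1000 UMIs, which left out 134 of the kept nuclei in Foxr2 p53LOF, and 1084 in Foxr2 alone. Folds across genes used a pseudocount of 1 CPM and a minimum of 10 CPM, and the rule was tested on simulated data. Named genes were Pomc, Oacyl, Foxr2, GFP and Hmga2, the list genes with at least 10 CPM or past 2-fold, the 8 genes most like each member and the first 10 genes of the cluster highest in Pomc. Genes outside this rule are said to be chosen after their values were seen. A few genes that the rule or a list names are not reported here. Alternatives were other filters, depths, scalings (edgeR 4.0.16 TMM factors), resolutions and pseudocounts. Those without the Pomc-rich nuclei, or without the 1 nucleus with most Pomc UMIs, were added after the data were seen.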

Additional observations from a re-analysis of the deposited data

How the results depend on the processing

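Of 235 alternatives over 82 values, 141 stayed within the counting interval of the main value or, for counts of genes, within a set fold. Another 78 moved and 16 reversed. A ratio whose interval held 0 could change sign and still be among the 141. No paired analysis was possible because counts of only 1 library per genotype were analysed here, and no replicate could be left out. With all called barcodes, Pomc in Foxr2 p53LOF was at 465.4 CPM (234 with the filters) and Oacyl at 12.5 (6.12), and the log2 ratios were 1.74 for Pomc with GFP, -0.20 for Pomc with Hmga2, and 0.86, 0.90 and -0.86 for Oacyl with Foxr2, GFP and Hmga2. With called doublets kept, Pomc was at 317 and Oacyl at 9.93 CPM, the Pomc ratios were 2.01, 1.37 and -1.87 for Foxr2, GFP and Hmga2, and the Oacyl ratios were 1.27 for GFP and -1.38 for Hmga2. CPM without the 50 genes with most UMIs gave Pomc 271 (highest cluster 557), Oacyl 7.10 (16.1) and, in Foxr2 alone, Oacyl 12.3 (17.9). Resolution 1 gave a highest cluster for Pomc of 498 CPM and, in Foxr2 alone, 6.28.

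Without the Pomc-rich nuclei, an alternative chosen after seeing the data, Pomc was at 93.1 CPM (highest cluster 435), Oacyl at 2.77 (6.18), the Pomc ratios were 0.0089, 0.10 and -0.10, and those of Oacyl -0.53, -0.10 and -0.91, for Foxr2, GFP and Hmga2. Without also the 1 nucleus with most Pomc UMIs of either side, the Pomc ratio reversed from 0.58 to -0.51 for Hmga2 in cluster 2, from 1.09 to -0.21 for Hmga2 in cluster 3 and from -0.49 to 0.044 for Foxr2 in cluster 16. With at least 2 UMIs of the second gene, the Foxr2 ratio was -0.66 for Pomc and -1.49 for Oacyl, and the Pomc ratio was 1.11 for GFP and -1.94 for Hmga2. With each nucleus thinned to 1000 UMIs, the Pomc ratios were 0.022, 0.0499 and -1.23 and the Oacyl ratios -0.68, -0.73 and 0.068. Without cluster 2, the Pomc ratios were -0.13, -0.069 and -0.52, the Oacyl ratios -0.97, -0.16 and -0.46, and 139 genes were called higher with Foxr2 (396 with it). Calling from at least 2 Foxr2 UMIs gave 985 genes higher and 1511 lower (396 and 671 from 1). With no minimum CPM, 15 list genes were lower in the Pomc-rich nuclei (8 with it).

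The share of nuclei with a UMI depends on depth. At 500 UMIs, 2000 UMIs and with no thinning, it was 5.63%, 16.1% and 36.4% for Pomc and 0.167%, 0.595% and 1.77% for Oacyl in Foxr2 p53LOF, and for Oacyl in Foxr2 alone 0.229%, 1.96% and 4.29%. For Pomc in Foxr2 alone it was 0.0361% at 500 UMIs and 0.565% with no thinning. Minimums of 1000 genes and ATAC counts gave 9.66% for Pomc in Foxr2 p53LOF. The Foxr2 log2 ratio of ATAC counts near Pomc (-0.57) was 0.028 per nucleus and 0.052 by nuclei with a count. Near Oacyl (-0.07) it was 0.32 within 2 kb, 0.53 per nucleus and 0.43 by nuclei with a count. No Pomc peak lay within 2 kb in Foxr2 p53LOF, so that value could not be computed. Where no alternative shows it, the cause was not tested.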
